A study of Mus musculus with 20 samples.

Results

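The subunits of the oxidative phosphorylation complexes that are encoded in the nucleus were followed in microglia of 6 mouse groups. Members were found by gene symbol, as Nduf followed by a, b, c, s or v and a number (complex I), the Sdh genes (complex II), the Uqcr genes and Cyc1 (complex III), Cox4 to Cox8 (complex IV) and Atp5 (complex V). The rule took 87 of the 21315 symbols listed, 38 in complex I, 4 in complex II, 9 in complex III, 19 in complex IV and 17 in complex V. Of these, 80 passed the filter on low values in every fit. The other 7, Ndufa4l2, Cox4i2, Cox6b2, Cox7a1, Cox7b2, Cox8b and Cox8c, had scaled values of 0 to 2.84 and were not tested. Ndufa4 is grouped here by its symbol in complex I, although its protein is also known as a component of complex IV.

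Complexes I and II take electrons from NADH and succinate, complex III passes them through cytochrome c to complex IV, and complex IV hands them to oxygen. The protons pumped by complexes I, III and IV drive complex V, the ATP synthase. Most subunits are made from nuclear genes and a small core from mitochondrial DNA, and microglia shift between oxidative phosphorylation and glycolysis as their state changes. The 13 subunits encoded in mitochondrial DNA were looked for by symbol and 0 were found among the symbols listed, so they could not be analysed here.

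All mice were C57BL/6 and 9 months old, of both sexes, and their microglia were sorted from papain-digested brain as CD45mid CD11b+ cells. APP-KI mice carry the APP NL-G-F knockin, in which the humanized gene with disease mutations replaces the mouse sequence at its own locus and amyloid plaques form. In C3aR-KO mice the complement receptor gene C3ar1 is disrupted in all cells. These groups and mice with both changes (labelled APP-KI; C3aR-KO and called compound mutants here) were littermates of the WT mice. C3aR-positive cells came from a separate cross of WT or APP-KI mice with a Td-tomato reporter C3ar1 fl/fl line and were further gated on Td-tomato. There were 3 libraries each of C3aR-positive WT, C3aR-positive APP-KI, WT, APP-KI and C3aR-KO microglia and 5 of compound mutants. The labels number the replicates of each group and do not tie a library to a mouse, so p-values measure the spread between libraries.

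Libraries held 13939559 to 76608464 recovered reads, with the C3aR-positive libraries at 13939559 to 30388941 and the others at 42239056 to 76608464. Levels are given as scaled values, which are reads divided by the upper quartile of the library and multiplied by 1 constant, so that 1 read is worth 0.0132 to 0.0786. They are not divided by gene length. In all, 4 libraries, APP-KI replicate 4, C3aR-KO replicates 1 and 2 and compound mutant replicate 1, stood apart, with 12386 to 13249 symbols detected against 14885 to 21210 in the others. By the library numbers in the deposited names, all 4 were in series 24, as were WT replicate 4, APP-KI replicate 5 and compound mutant replicate 2. The other libraries without selection on C3aR were in series 26, and the C3aR-positive libraries in series 22. Results that rest on the 4 libraries are given with and without them. Leaving them out also changes the balance of the series and leaves C3aR-KO in series 26 only. C3ar1 itself was at 37.6 to 81.2 in C3aR-positive WT and 276 to 340 in WT, at 39.9 to 80.4 in both knockout groups, and at 165 to 388 in the APP-KI groups of either sort. The lower C3ar1 level in C3aR-positive WT than in unselected WT libraries goes against the gate's label, and these libraries are named as labelled. Gpnmb, a gene of plaque-associated microglia, was at least 264 in every library with APP-KI and at most 3.95 in every other.

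In C3aR-positive microglia, subunits of all 5 complexes were higher in APP-KI than in WT. Of the 80 members tested, 35 rose and 0 fell with limma at an adjusted p below 0.05, where 13% of the 12312 genes tested rose and 9.71% fell. At an unadjusted p below 0.05, 47 members were higher and 1 was lower, beside 17.9% and 19.7% of all genes. Without overlap between the groups, 48 members were higher and 1 was lower (17.8% and 25.7%). With edgeR on the recovered reads 38 members rose and 0 fell, beside 14.4% and 5.35% of the 12312 genes, and with DESeq2 48 rose and 0 fell, beside 18.1% and 7.74% of the 12278 genes that it tested. The median log2 difference was 0.70 over members and -0.17 over all genes tested, a gap of 0.87. With median ratio scaling the median of all genes moved to -0.03. The difference was positive for 69 of the 80 members.

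The mean log2 level of the 80 members lay between 4.15 and 4.35 in the 3 C3aR-positive WT libraries and between 4.77 and 5.16 in the 3 C3aR-positive APP-KI libraries. The groups did not overlap. Complex IV stood furthest apart, at 3.96 to 3.99 against 5.14 to 5.33. Complex II, which contributes no proton pump, was the closest, at 5.33 to 5.63 against 5.72 to 6.01.

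**Figure D1:**
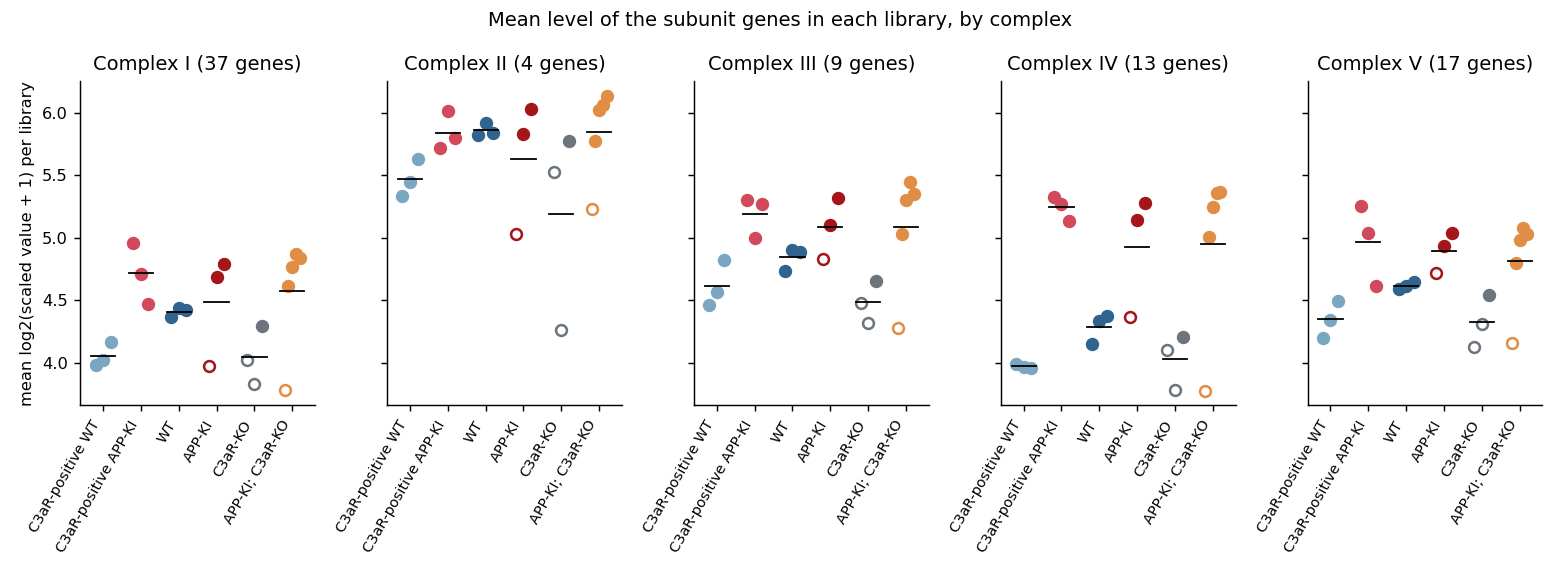
Mean log2(scaled value + 1) of the tested members of each complex (vertical axis) in each of the 20 libraries, by group (horizontal axis), with 1 panel per complex. Horizontal bars are group means, and open symbols mark the 4 libraries with few genes detected. In complex IV the C3aR-positive WT libraries sit at 3.96 to 3.99 and the C3aR-positive APP-KI libraries at 5.14 to 5.33.

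By complex, 10 of 13 tested complex IV members rose (median log2 difference 1.08), 4 of 9 in complex III (0.80), 8 of 17 in complex V (0.68), 11 of 37 in complex I (0.67) and 2 of 4 in complex II (0.34). Differences between complexes were not tested.

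Cox6a2 encodes the subunit 6A isoform known from heart and skeletal muscle, and Cox6a1 the isoform of most other tissues. Cox6a2 was at 2.60, 1.46 and 0.712 in C3aR-positive WT and at 24.7, 42.1 and 35.6 in C3aR-positive APP-KI. Every APP-KI library was above every WT library, and the log2 difference was 3.79 ± 0.40 (SE, n = 3 per group, limma adjusted p = 0.000262). Cox6a1 was at 15.6, 19.4 and 18.7 against 64.8, 57.1 and 64.2, a log2 difference of 1.74 ± 0.18 (limma adjusted p = 0.000228). Per base of exon, Cox6a2 made up 3.79% to 14.7% of the pair in C3aR-positive WT and 28.2% to 43.2% in C3aR-positive APP-KI. The share of Cox6a2 was higher in every C3aR-positive APP-KI library than in any C3aR-positive WT library. Cox6a2 lies at chr7:128205435-128206387 on the minus strand (GRCm38), with 680 exon bases.

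Cox4i1, the nuclear subunit needed early in complex IV assembly, was at 71.0, 67.4 and 68.5 in C3aR-positive WT and at 176, 146 and 196 in C3aR-positive APP-KI. The groups were well separated, with a log2 difference of 1.30 ± 0.13 (SE, limma adjusted p = 0.000228). Cox7a2l, grouped in complex IV by its symbol, was at 30.4, 35.2 and 35.3 against 93.2, 84.9 and 132. Cox8a, the ubiquitous subunit 8 isoform, was at 22.2, 27.0 and 31.9 against 76.1, 68.3 and 78.9. Both rose, by log2 differences of 1.57 and 1.44 (limma adjusted p = 0.000407 and 0.000533). Cox5b-ps, Cox6b1, Cox7a2, Cox6c and Cox5b rose by 1.64 to 0.77. Reads of the pseudogene Cox5b-ps and of Cox5b may be exchanged, since the treatment of reads with several matches is not given in the sources used here. Cox5a had a log2 difference of 0.72 with a 95% interval of -0.04 to 1.47 and did not pass.

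**Figure D2:**
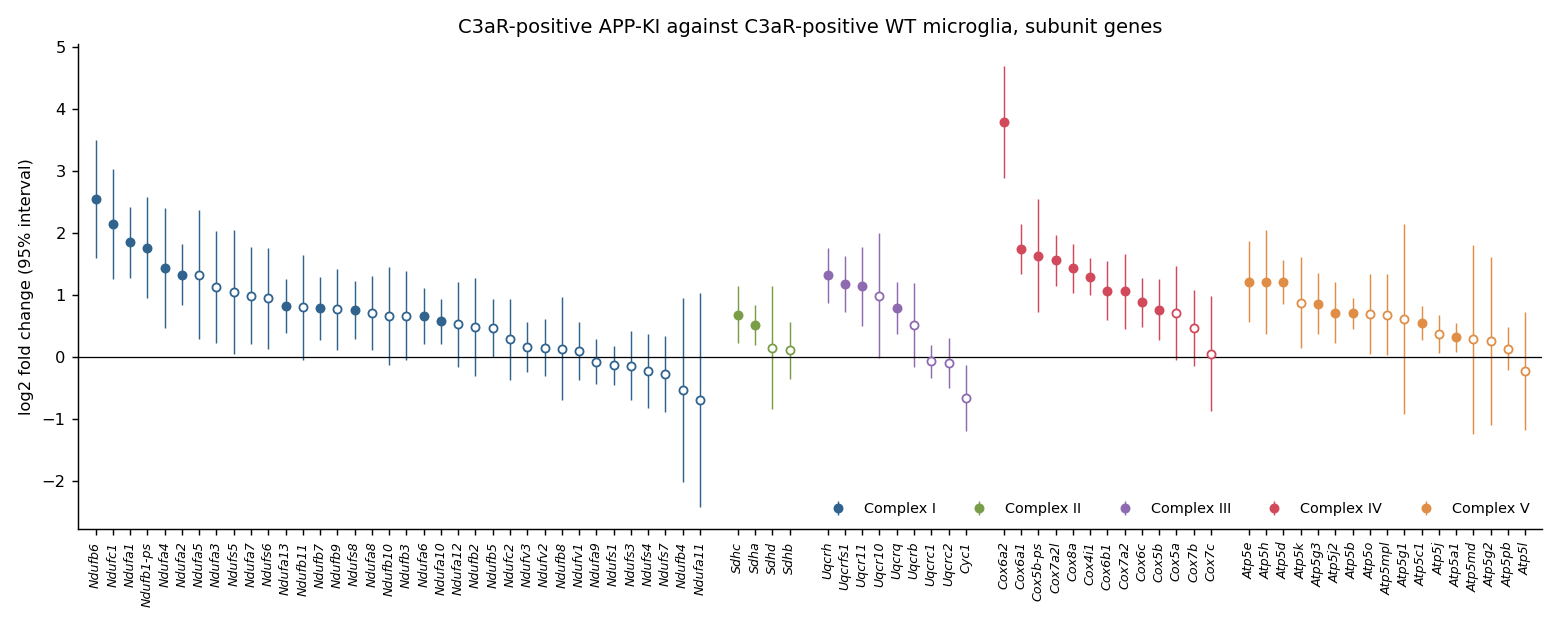
Log2 difference of C3aR-positive APP-KI from C3aR-positive WT microglia (vertical axis) for 79 of the 80 tested members (horizontal axis), by complex. Points are limma estimates, bars are 95% intervals and filled points have an adjusted p below 0.05. The 35 filled points all lie above 0, from 0.32 for Atp5a1 to 3.79 for Cox6a2.

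In complex I the largest rises were in accessory subunits, which surround the catalytic core. Ndufa1, needed for assembly of the membrane arm, was at 7.68, 8.30 and 7.47 in C3aR-positive WT and at 28.0, 29.4 and 35.7 in C3aR-positive APP-KI. Ndufc1, a small subunit of the same arm, was at 2.99, 3.47 and 2.74 against 14, 12.7 and 27.5. Neither gene's groups overlapped, and the log2 differences were 1.85 ± 0.25 and 2.15 ± 0.40 (SE, limma adjusted p = 0.000959 and 0.00444). Ndufb6 was at 0.547, 0.537 and 0.605 against 8.12, 8.59 and 7.78, and passed the filter only through the APP-KI libraries. Ndufb1-ps rose by 1.77, and its entry in the annotation is not protein coding, so its reads may include those of a related or overlapping gene. The 7 tested members of the core list of complex I, which carry the flavin and iron-sulfur clusters or lie next to them, had a median log2 difference of 0.10. Among these, Ndufs8 rose by 0.77 (limma adjusted p = 0.0267), while the largest core subunit, Ndufs1, was at 69.7, 57.5 and 61.5 against 59.4, 53.9 and 58.4, with overlapping groups and a log2 difference of -0.13 (95% interval -0.44 to 0.18). The 30 other tested subunits of complex I had a median of 0.74, and 10 rose.

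In complex II, Sdha, the flavoprotein that oxidizes succinate, was at 163, 164 and 130 in C3aR-positive WT and at 186, 223 and 251 in C3aR-positive APP-KI. Sdhc, a membrane anchor, rose with it, and the log2 differences were 0.53 and 0.69 (limma adjusted p = 0.028 and 0.0381). Sdhb, the iron-sulfur subunit, had a difference of 0.11 and its groups overlapped.

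In complex III, Uqcrh, the hinge protein that binds cytochrome c1, was at 23.9, 22.8 and 28.0 against 63.1, 50.8 and 79.5. Uqcrfs1, the Rieske iron-sulfur protein, was at 22.5, 17.4 and 16.6 against 43.7, 41.2 and 46.2. Both rose without overlap, by log2 differences of 1.32 ± 0.20 and 1.18 ± 0.20 (SE, limma adjusted p = 0.00164 and 0.00282), and Uqcr11 and Uqcrq rose by 1.15 and 0.80. Cyc1, the cytochrome c1 that Uqcrh binds, was at 28.6, 37.8 and 40.7 against 23.0, 17.2 and 27.1. Every APP-KI library was below every WT library for Cyc1, and the log2 difference of -0.66 did not pass (95% interval -1.19 to -0.12, limma adjusted p = 0.0738). Uqcrc1, a core protein of the complex, had a difference of -0.06.

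In complex V, Atp5b, the catalytic beta subunit, was at 156, 176 and 178 in C3aR-positive WT and at 256, 291 and 292 in C3aR-positive APP-KI, a log2 difference of 0.71 ± 0.11 (SE, limma adjusted p = 0.002). Atp5a1, the alpha subunit that forms the hexamer with it, was at 249, 269 and 240 against 319, 318 and 310 and rose by 0.32. In the central stalk, Atp5c1, the gamma subunit, rose by 0.56, and Atp5d and Atp5e rose by 1.21 and 1.22. Of the 3 genes for the identical c-ring protein, Atp5g3 rose by 0.87, whereas Atp5g1 (0.62) and Atp5g2 (0.26) did not pass.

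The core list over all complexes, 17 genes taken for catalysis or early assembly, had 7 rises and a median of 0.16, and the other 63 tested members had 28 rises and a median of 0.77. The core genes were longer, with a median of 2178 exon bases against 1251. Among members of more than 1500 bases the medians were 0.15 for 15 core genes and 0.58 for 25 others, and among shorter ones 0.98 for 2 and 1.06 for 34. The part of gene length in this contrast was not tested further.

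Gene length moved with the result across all genes. Other genes, without members and cytosolic ribosomal protein genes, had a median log2 difference of 0.47 up to 750 exon bases, 0.04 from 750 to 1500, -0.14 from 1500 to 3000 and -0.18 from 3000 to 6000. Members in the same 4 classes had medians of 1.39, 0.82, 0.26 and 0.53, on 10, 26, 23 and 15 genes. Within each of these 4 classes the members were above the other genes, and the highest median in both was in the shortest class. Exon bases are the union of exons over all annotated transcripts of a gene, for example 5628 for Ndufb2. Genes of 1 class are thus not matched by the length of the transcript expressed. Members had a median length of 1578 bases over the 76 with a length, and all genes tested 4586.

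**Figure D3:**
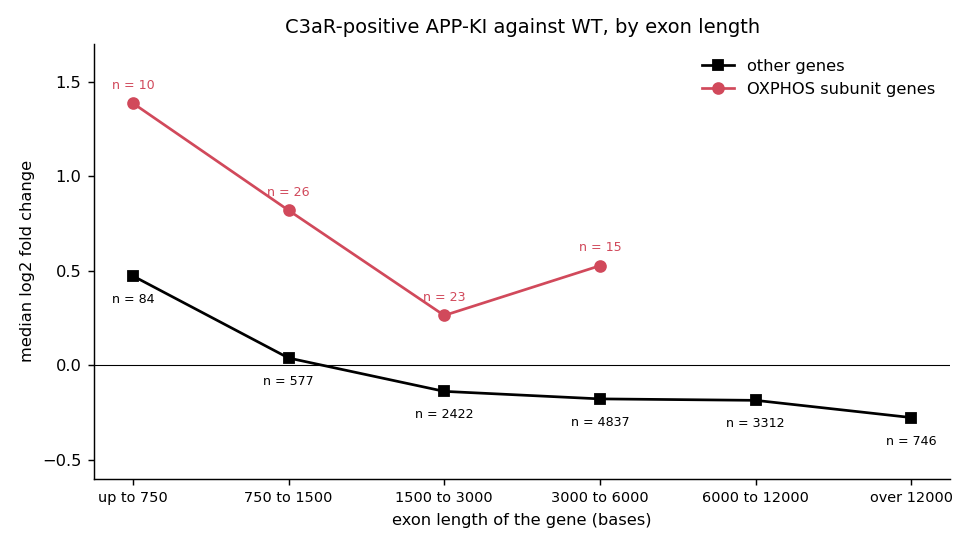
Median log2 difference of C3aR-positive APP-KI from C3aR-positive WT (vertical axis) by class of exon length in bases (horizontal axis), for the members and for other genes without ribosomal protein genes. Member medians are drawn for classes of at least 5 members. Members stand at 1.39 and other genes at 0.47 in the class up to 750 bases.

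Promoter sequence was looked at for elements known from respiratory genes. RefSeq windows of 250 bases before to 50 bases after the start (GRCm38.p6) were found for 68 of the 87 members, 73 windows in all. The site of nuclear respiratory factor 1, searched as GCGC, any base and TGCGC, was in 24.7% of member windows and 4.60% of all 32851 windows. The YY1 site AAGATGGC was in 13.7% and 2.75%, and the ETS site CCGGAAG, which GABPA (nuclear respiratory factor 2) can bind, in 23.3% and 8.86%. The core hypoxia response element ACGTG was in 24.7% of member windows and 19.6% of all. Both strands were searched, and none of the 4 sets of letters contains another. The member windows were set beside all windows, which were not matched to them by base composition. The ETS letters were in 10 of the 26 genes with a window that rose in C3aR-positive APP-KI and in 7 of the 42 others. NRF1 letters were in 6 of 26 and 11 of 42, YY1 letters in 2 and 8, and ACGTG in 5 and 12. The 42 others include members that were not tested, such as Cox7a1 and Cox8b, which carry ACGTG. Genes that rose and genes outside that set thus both carried each element, and no test was made of these shares.

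For each of the first 3 elements, 200 bases (170 before and 30 after the start) are shown for 1 member that rose and 1 that did not pass. They were chosen by the largest and the smallest difference among members with the element inside these 200 bases, each gene shown once, so that members with the element elsewhere in the window were not considered and the same letters can be seen beside different outcomes. The strand is that of the gene, and capitals mark the element or its reverse complement.
Cox6a1, chr5:115348929-115349128, minus strand: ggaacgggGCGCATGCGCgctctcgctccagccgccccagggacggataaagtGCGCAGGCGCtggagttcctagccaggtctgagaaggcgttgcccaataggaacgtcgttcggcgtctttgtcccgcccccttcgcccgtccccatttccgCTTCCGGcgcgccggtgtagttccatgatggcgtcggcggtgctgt
Uqcrc1, chr9:108936478-108936677, plus strand: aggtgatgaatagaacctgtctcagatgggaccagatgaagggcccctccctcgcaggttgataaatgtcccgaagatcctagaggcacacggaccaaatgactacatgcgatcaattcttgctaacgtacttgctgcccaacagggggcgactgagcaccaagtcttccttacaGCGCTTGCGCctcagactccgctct
Ndufc1, chr3:51408926-51409125, minus strand: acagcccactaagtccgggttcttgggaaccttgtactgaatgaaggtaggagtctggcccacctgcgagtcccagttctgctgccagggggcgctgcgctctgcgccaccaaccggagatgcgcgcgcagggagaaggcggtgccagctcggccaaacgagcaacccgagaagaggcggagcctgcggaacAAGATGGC
Atp5pb, chr3:105959234-105959433, minus strand: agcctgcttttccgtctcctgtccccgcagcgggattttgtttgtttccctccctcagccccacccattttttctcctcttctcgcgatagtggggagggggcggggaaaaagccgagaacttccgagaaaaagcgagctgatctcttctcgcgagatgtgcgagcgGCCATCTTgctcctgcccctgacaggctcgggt
Cox8a, chr19:7217587-7217786, minus strand: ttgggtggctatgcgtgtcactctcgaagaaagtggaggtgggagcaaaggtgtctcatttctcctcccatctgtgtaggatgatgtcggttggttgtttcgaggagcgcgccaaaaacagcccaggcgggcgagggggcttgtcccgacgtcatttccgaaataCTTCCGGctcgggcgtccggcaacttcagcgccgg
Sdhb, chr4:140961101-140961300, plus strand: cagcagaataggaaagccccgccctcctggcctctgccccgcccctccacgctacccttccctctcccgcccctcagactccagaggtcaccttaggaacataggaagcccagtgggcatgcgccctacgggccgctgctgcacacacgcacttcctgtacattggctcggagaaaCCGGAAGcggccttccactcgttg
Cox6a1, which rose by 1.74, has the NRF1 letters at 2 places and an ETS match near its start, and Uqcrc1, at -0.06, has 1 NRF1 match in the stretch shown, close to the start, and a second match further on in its window. Ndufc1 and Atp5pb (log2 differences 2.15 and 0.14) carry YY1 letters in opposite orientations. Cox8a (1.44) and Sdhb (0.11) each carry 1 ETS match in the stretch shown, and the window of Cox8a holds another outside it.

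Other mitochondrial genes were counted in the same comparison. Of 49 tested assembly factors of the complexes, Surf1 and Coa5 rose, Cox18 fell and the median was -0.24. Of 13 tricarboxylic acid cycle genes, Mdh2 and Ogdh rose and the median was 0.24. Of 16 carriers and outer membrane genes, 6 rose, with a median of 0.37, among them the ATP and phosphate carriers Slc25a4 and Slc25a3 (0.81 and 0.70), the channel Vdac1 (1.07) and the chaperonins Hspd1 and Hspe1 (0.66 and 1.38). None of 13 regulators of mitochondrial biogenesis passed limma's adjusted p, and at an unadjusted p below 0.05 there were 2 with higher and 2 with lower levels. Mitochondrial ribosomal protein genes, also encoded in the nucleus, had a median of -0.15, with 1 of 77 rising, whereas 56 of 90 cytosolic ribosomal protein genes rose and 1 fell (median 1.17).

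Markers of other cells moved in this comparison, and fewer cells of a type cannot be told apart from less RNA per cell in these bulk libraries. Of 10 microglia markers 5 fell, with summed scaled values of 24602 to 27015 in C3aR-positive WT and 17914 to 21136 in C3aR-positive APP-KI. Of 7 border macrophage markers 5 fell (sums 484 to 713 against 184 to 414). Among endothelial markers Flt1 rose from 10.7 to 22.2 in WT to 155 to 314 in APP-KI, while Pecam1 fell. The sums were 47.3 to 99.8 against 172 to 327, although Flt1 was the 1 of 7 tested endothelial markers with a positive difference and their median was -0.78. The neuron sums were 5.22 to 5.56 against 12.1 to 23.2, with Eno2 rising, and Gfap of astrocytes and Mbp of oligodendrocytes rose while Slc1a3 fell. The rest of these lists did not all follow. Positive differences were found for 2 of 3 tested neuron markers (median 0.11, lowest -1.17). They were found for 3 of 7 astrocyte markers (median -0.12) and 3 of 6 oligodendrocyte markers (median 0.29). No listed marker was at 0 in all libraries of a C3aR-positive group. Their part in the differences of the members was not tested.

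In microglia not selected on C3aR, the 3 members that rose in APP-KI against WT were Uqcrh, Cox6c and Cox6a2, and 0 fell, where 2.22% of 12407 genes rose and 1.93% fell. Uqcrh was at 21.7, 28.5 and 29.0 in WT and at 90.1, 43.7 and 60.2 in APP-KI. Cox6c, a subunit of complex IV, was at 28.9, 32.3 and 31.3 against 52.5, 52.5 and 55.8, and Cox6a2 at 1.61, 2.54 and 2.42 against 15.8, 33.6 and 30.2. None of the 3 overlapped, and the log2 differences were 1.27 ± 0.25, 0.91 ± 0.21 and 3.38 ± 0.85 (SE, limma adjusted p = 0.00912, 0.0202 and 0.0367). No call of these 3 passed in every alternative tried. Cox4i1, at 60.6, 79.6 and 77.9 against 145, 140 and 173, missed the threshold with a difference of 1.21 (95% interval 0.51 to 1.90, limma adjusted p = 0.0525). At an unadjusted p below 0.05, 12 members were higher and 0 lower (5.95% and 6.49% of all genes), and 27 members were higher and 0 lower without overlap (12.8% and 16.4%). The median was 0.31 over members and -0.01 over all genes.

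This count depended on the libraries with few genes detected. Without these 4 libraries, with 2 APP-KI libraries left, 44 of 80 members rose and 0 fell, where 13.2% of 12563 genes rose and 14.7% fell, and the median was 0.36. The 44 comprised 11 of 13 in complex IV, 18 of 37 in complex I, 6 of 9 in complex III, 9 of 17 in complex V and 0 of 4 in complex II. Among them, the log2 differences were 3.37 for Cox6a2, 1.79 for Ndufa1, 1.18 for Cox4i1, 1.10 for Cox6a1 and 1.01 for Uqcrh. Of the core list 3 of 17 rose, and of the other members 41 of 63. Cox6a1 shows how far 1 library counted, at 17.7 in APP-KI replicate 4 and 53.5 and 69.1 in replicates 5 and 6, beside 25.5 to 31.7 in WT. Of the 2 APP-KI libraries left, replicate 5 was itself unusual. It had the most symbols detected of all 20 libraries (21210) and the largest neuron marker sum (44.8, against 10.7 in replicate 6). By library number series, the only batch the deposited names give, the median difference of members was 0.15 in one and 0.32 in the other, with 1 library on a side in each. Flt1 rose by 4.26 and the microglia markers Sall1 and Siglech and the border macrophage markers Mrc1 and F13a1 fell in the same comparison, and their part was not tested.

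**Figure D4:**
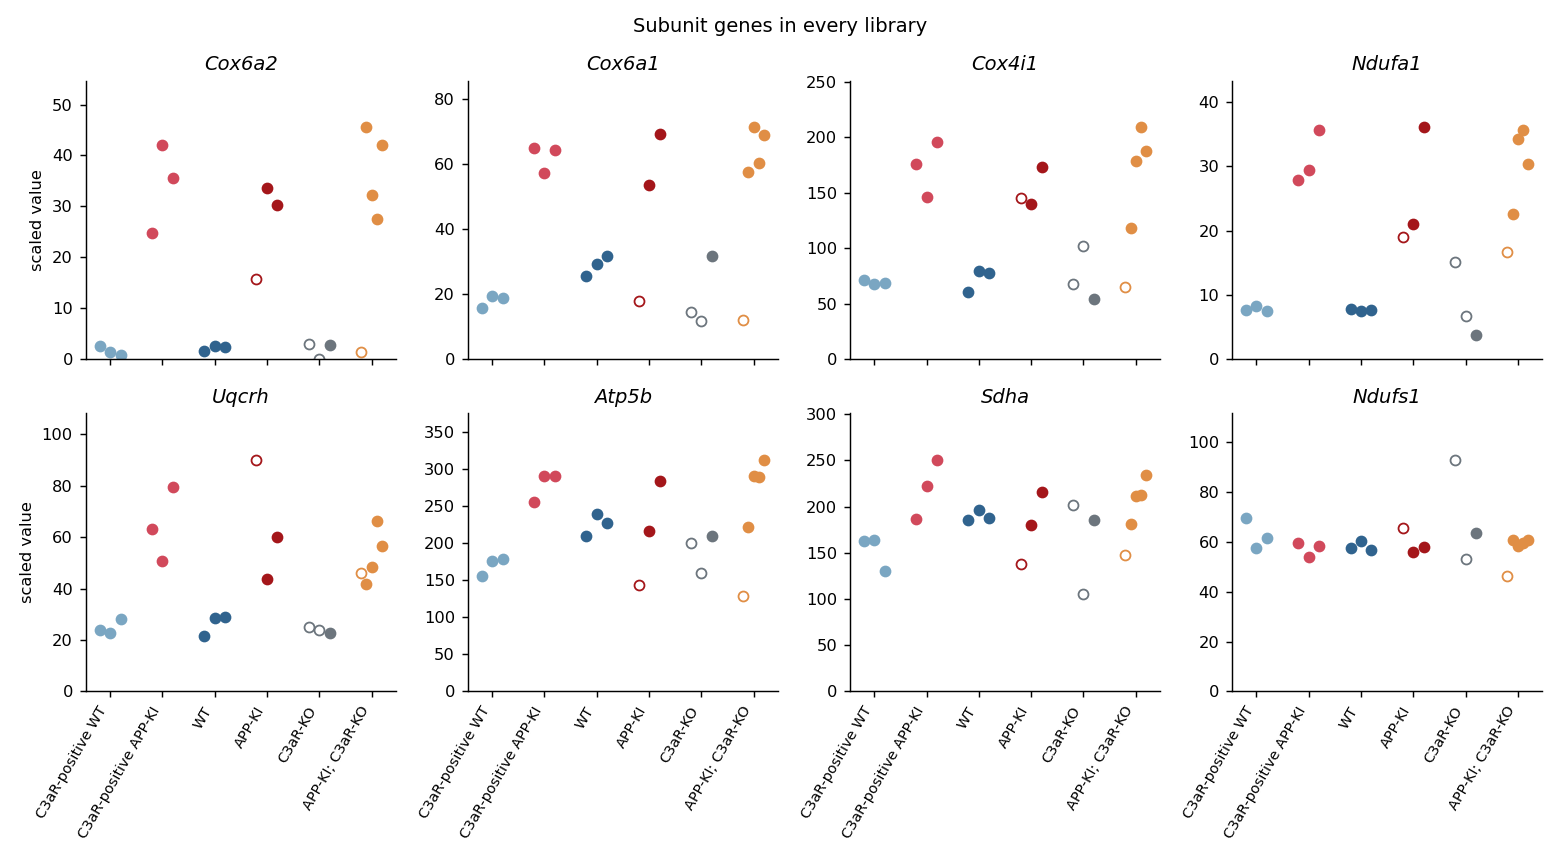
Scaled values of selected members (vertical axes, from 0) in each of the 20 libraries by group (horizontal axis). Open symbols are the 4 libraries with few genes detected. For Cox6a2 the WT libraries lie at 1.61 to 2.54 and the APP-KI libraries at 15.8 to 33.6.

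Loss of C3ar1 was compared in WT and in APP-KI mice. In C3aR-KO against WT, 0 members passed with limma in either direction, where 0.0% of genes rose and 0.00806% fell. At an unadjusted p below 0.05, 0 members were higher and 5, Ndufa7, Ndufs8, Uqcr11, Atp5e and Sdhc, were lower (0.991% and 1.78% of all genes). The median was -0.18 over members and -0.03 over all genes, and 19 members were lower and 2 higher without overlap (9.31% and 9.16% of all genes). Without the libraries with few genes detected, which left 1 C3aR-KO library whose spread was assumed to be that of the other groups, the median was -0.16 and again 0 passed with limma (0.00796% of genes in each direction). At an unadjusted p below 0.05 there were then 19 members lower and 1 higher, where 5.45% of all genes were lower and 9.09% higher.

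In compound mutants against APP-KI, 0 members passed with limma (0.0% of genes rose and 0.00806% fell) and 0 had an unadjusted p below 0.05 (0.306% of all genes in the higher and 0.879% in the lower direction). Without overlap, 1 member was higher and 1 lower (0.604% and 1.01%). The median was -0.03 for members and for all genes. Cox6a2, at 1.38, 45.5, 32.1, 27.6 and 42.1 in the compound mutants, overlapped with APP-KI and had a log2 difference of -0.56 with a 95% interval of -2.17 to 1.06. Its lowest value, 1.38, is that of replicate 1, a library with few genes detected. For Cox4i1 the interval was -0.85 to 0.39, for Ndufa1 -0.75 to 0.93 and for Atp5b -0.37 to 0.49. Without the libraries with few genes detected, the difference of Cox6a2 was 0.19 (95% interval -0.29 to 0.67), the differences of all 80 members lay between -0.35 and 0.19, and the median was 0.01 for members and -0.01 for all genes. Then 0 members passed with limma (0.0% of genes rose and 0.00796% fell), and at an unadjusted p below 0.05 there were 0 higher and 2, Cox7a2 and Atp5l, lower (0.995% and 2.13%). These intervals do not show equal levels, and differences within them were not detectable with these libraries. The test of the difference between C3ar1 loss in the APP-KI and in the WT background passed for 0 members with limma (0.0% of genes in either direction), and 3, Ndufa7, Ndufc2 and Uqcr11, were higher at an unadjusted p below 0.05 and 0 lower (0.895% and 0.742% of all genes). Without the libraries with few genes detected, 0 members passed that test (0.0% either way), 9 were higher and 1 was lower at an unadjusted p below 0.05 (5.36% and 8.76%), and the median was 0.17. The counts of 0 for C3ar1 loss, in each genotype and in the test of the difference, were also 0 with edgeR and with DESeq2 on the recovered reads.

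APP-KI in the absence of C3ar1 was compared next, as compound mutants against C3aR-KO. Here 11 members rose and 0 fell, where 3.96% of genes rose and 2.97% fell. Ndufa1 was at 15.1, 6.65 and 3.75 in C3aR-KO and at 16.7, 22.6, 34.2, 35.8 and 30.4 in the compound mutants. Atp5e, of the central stalk, was at 7.19, 6.26 and 10.9 against 20.8, 19.4, 27.8, 34.9 and 24.9, and Uqcr11 of complex III at 8.71, 5.42 and 12.3 against 27.5, 19.8, 26.9, 28.0 and 26. None of the 3 overlapped, with log2 differences of 1.69 ± 0.39, 1.43 ± 0.25 and 1.42 ± 0.25 (SE, limma adjusted p = 0.0161, 0.00227 and 0.00272). Ndufc1 (2.07), Ndufa7 (1.51), Atp5k (1.19), Uqcrh (1.01), Ndufa6 (0.98), Cox6c (0.89) and Atp5c1 (0.57) rose without overlap. The call of Ndufc1 held in 9 of 25 alternatives, not counting the stricter threshold, and those of the others in this list in at least 23. Ndufc1 was at 0 in C3aR-KO replicate 2 and at 29.3 in compound mutant replicate 1, both libraries with few genes detected. Cox6a2 also passed with 2.83, but compound mutant replicate 1 at 1.38 lay below the highest C3aR-KO library at 2.99.

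At an unadjusted p below 0.05, 32 members were higher and 0 lower in this comparison (10.1% and 10.3% of all genes), and 17 were higher and 0 lower without overlap (6.34% and 7.34%). The median was 0.48 over members and -0.03 over all genes. Within series 24 the median of members was 0.46, where both C3aR-KO libraries and compound mutant replicate 1 had few genes detected. Within series 26 it was 0.51, with 1 C3aR-KO library. No call of the 11 passed in every alternative. Without the libraries with few genes detected, 1 C3aR-KO library remained, whose spread was assumed to be that of the other groups. Then 58 members rose and 0 fell (13.2% and 18.2% of all genes), with a median of 0.49, led by Cox6a2 (3.30), Ndufa1 (2.82) and Cox4i1 (1.75). With the libraries with few genes detected kept in, Flt1 (3.80) and Mbp (1.06) rose and Siglech, Mrc1, F13a1 and Ccr2 fell. The lists of Flt1 and Mbp did not all follow. Differences were positive for 2 of 6 tested oligodendrocyte markers (median -0.18). Of 7 tested endothelial markers 5 had positive differences (median 0.39), and 2 were lower at an unadjusted p below 0.05. The part of these markers was not tested. The APP-KI comparisons with and without C3ar1 share no libraries, and the difference between them is the test given above for C3ar1 loss.

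**Figure D5:**
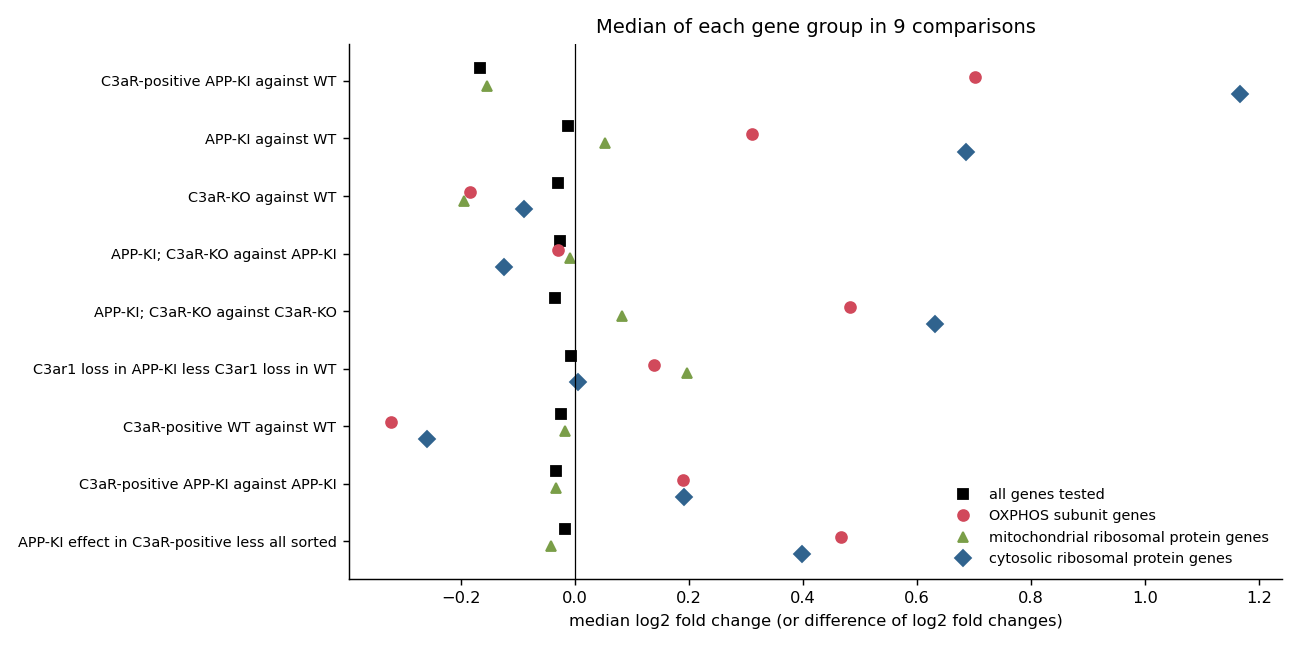
Median log2 difference (horizontal axis) over the tested members, all genes tested, and the mitochondrial and cytosolic ribosomal protein genes, for each comparison (vertical axis). Members stand at 0.70 in C3aR-positive APP-KI against WT, at 0.31 in APP-KI against WT and at -0.03 in compound mutants against APP-KI.

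C3aR-positive and unselected microglia of the same genotype were set side by side, although the sort, the mouse cross and the library number series cannot be told apart there. In C3aR-positive WT against WT, 0 members passed with limma (0.0% of genes either way), 12 were lower and 0 higher at an unadjusted p below 0.05 (3.38% and 1.0% of all genes), and 32 were lower and 1 higher without overlap (13.2% and 9.74%). The median was -0.32. Ndufb6, at 0.547 to 0.605 in C3aR-positive WT and 5.16 to 6.11 in WT, had the largest difference and was the 1 member that fell with limma without the libraries with few genes detected (0.0% of genes rose and 0.095% fell). In this fit the only such library was APP-KI replicate 4, so the WT libraries of both sorts and their median of -0.32 could not change. Leaving it out changed the estimated spread and the genes tested. Then 20 members were lower and 0 higher at an unadjusted p below 0.05 (6.55% and 3.91%). Ndufc1, Ndufa4, Uqcrfs1 and Cox8a were among the 12. In C3aR-positive APP-KI against APP-KI, 0 passed with limma (0.0% either way), 2 were higher at an unadjusted p below 0.05 and 0 lower (1.59% and 3.63% of all genes), 3 were higher and 1 lower without overlap (1.86% and 4.21%), and the median was 0.19. Without the libraries with few genes detected the median was 0.03, 0 passed (0.0% either way), and 0 were higher and 1, Cyc1, was lower at an unadjusted p below 0.05 (1.78% and 5.7%). The APP-KI effect in the C3aR-positive sort less that in unselected microglia passed for 0 members with limma (0.0% either way), for 1 with DESeq2, and at an unadjusted p below 0.05 for 20 in the higher and 0 in the lower direction (6.64% and 5.12%), with a median of 0.47. Without those libraries 0 passed with limma (0.0% either way), at an unadjusted p below 0.05 there were 15 higher and 1 lower (6.06% and 5.44%), and the median was 0.30. The member mean was 4.15 to 4.35 in C3aR-positive WT, 4.49 to 4.59 in WT, 4.77 to 5.16 in C3aR-positive APP-KI and 4.35 to 5.05 in APP-KI. The WT groups thus did not overlap, whereas the APP-KI groups did. The counts of 0 for WT and for APP-KI between the sorts were also 0 with edgeR and DESeq2.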

How the data were processed

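Bulk RNA-seq of sorted microglia was measured in 20 libraries of 6 groups, grouped by the labels. Libraries were made with a SMARTer total RNA kit that adds molecular identifiers, and whether these were used in counting, and the handling of strand and of reads with several matches, is not given in the sources used here. Per the submitters' processing notes and the study's methods, the authors trimmed with cutadapt, aligned to mm10 with TopHat2, counted with featureCounts and used DESeq2. The deposited values, named FPKM by the authors, are a signal: each read count divided by the 75th percentile of its library's counts, with no division by length. Whole reads were recovered for 100.0% of values in every library (tolerance 0.02 of a read). All values were multiplied by 35.2, and 10 repeated symbols were summed.

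For each gene with a mean of at least 1, limma 3.58.1 (R 4.3.3) was run with its trend option on the log2 of the scaled value plus 1. The p-values were adjusted by Benjamini-Hochberg across the whole table, with a threshold of 0.05. Log2 differences on this scale understate changes of low genes. The design had been written for FPKM and this test was kept. The 6 C3aR-positive libraries were fitted alone (12312 genes), the 14 others together with a library number series term (12407 genes), and the 12 WT and APP-KI libraries of both sorts without one (12589 genes). Scripts were tested on simulated data. Intervals from limma cover the spread between libraries.

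The members and lists, and the genes named (a core list, a list of isoforms and the 5 largest rises and falls past the threshold without overlap in each comparison), were chosen with earlier results of these data known. Other genes were named after their values were seen. Values of 1 member are not reported here, and it stays in the counts and medians. Exon lengths are from GENCODE M21 (GRCm38, the same assembly as mm10), where 83 of the 87 members had 1 entry by name. They count the union of exons over all annotated transcripts, also for levels per exon base or kilobase, and can exceed the transcript expressed. Alternatives were another pseudocount, filter, scaling and threshold, limma without a trend, a replicate block, a series term, only the groups compared, edgeR 4.0.16 and DESeq2 1.42.0 on recovered reads, each library left out, and, chosen after seeing the data, leaving out the 4 libraries with few genes detected. Tables were built with pandas 2.3.3 and numpy 2.4.6 in Python 3.11.15.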

Additional observations from a re-analysis of the deposited data

Results flagged for a closer look

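Of 33 member values and complex means checked in the 5 compound mutant libraries, the one group large enough, 11 had a lowest or highest library whose gap to the next exceeded 0.71 of the range. For a single item chance gives about 1 in 20. The items share the same 5 libraries and the means contain the genes, so the count cannot be set against that rate. Replicate 1 was the library flagged in 9 of the 11. Replicate 1, a library with few genes detected, was the lowest for the mean log2 level of the 80 members (3.99 against 4.82 to 5.12), of complex I (3.78 against 4.61 to 4.87) and of complex IV (3.78 against 5.01 to 5.37). Its scaled values were also the lowest for Cox6a1 (11.9 against 57.5 to 71.2), Cyc1 (8.57 against 36.6 to 40.6), Ndufs1 (46.2 against 58.4 to 60.9) and Uqcrc1 (60.6 against 95.4 to 108.9). The same library was the highest for Ndufc1 (29.3 against 10.4 to 13.9) and Ndufv1 (65.7 against 49.6 to 52.4), so its members did not all lie low. Replicate 2 was the lowest for Cox5a (11.6 against 15.8 to 17.2) and Uqcr11 (19.8 against 26 to 28.0).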

How the results depend on the processing

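No member's call reversed under any alternative run. The member median less that of all genes changed sign in both results for C3ar1 loss with APP-KI: for compound mutants against APP-KI it was -0.0044 and ran from -0.064 (without APP-KI replicate 4) to 0.24 (with a replicate block), and for the difference of C3ar1 loss between backgrounds it was 0.15, and -0.03 without WT replicate 4. Of the 35 members that rose in C3aR-positive APP-KI, 18 passed under every alternative that tested them, leaving aside the stricter threshold of 0.0005. Ndufb6 is among the 18 and was not tested with the higher filter. With 1 library left out the count of 35 ran from 21 to 35. It was 21 without C3aR-positive WT replicate 1 or 2 or C3aR-positive APP-KI replicate 1. At an adjusted p below 0.0005 it was 4. For APP-KI against WT the count of 3 became 44 without the libraries with few genes detected, 9 with DESeq2, 5 with only the groups compared, 0 with a replicate block and 0 at an adjusted p below 0.0005. It ran from 0 (without WT replicate 4) to 10 (without compound mutant replicate 1), with 1 without WT replicate 5 or 6 and 5 without C3aR-KO replicate 2 or 3. For compound mutants against C3aR-KO the count of 11 became 58 without the libraries with few genes detected, 17 with DESeq2, 0 with a replicate block and 0 at an adjusted p below 0.0005, and ran from 7 (without compound mutant replicate 4) to 19 (without compound mutant replicate 1). For C3aR-positive WT against WT, 0 to 1 members fell with 1 library left out. The count was 1 without APP-KI replicate 4, the only library with few genes detected in that fit. The member median of this comparison less that of all genes, -0.30, became -0.0916 with a library series term. The C3aR-positive libraries were all in a series with no unselected library, so such a term cannot separate series from sort. The value of -0.0916 is thus not a difference corrected for the series of the C3aR-positive libraries. With 1 library left out, the median less that of all genes ran from -0.31 to -0.16 (-0.16 without C3aR-positive WT replicate 1). The difference of the APP-KI effect between sorts had 1 member with DESeq2. The cause of these changes was not tested. Replicate numbers were taken not to pair the samples, since the correlation across genes of same-numbered deviations was over 0.1 in 2 of 11 pairs: it was -0.01 to 0.04 in the C3aR-positive groups, 0.09 to 0.25 between WT and APP-KI, -0.0019 to 0.22 between C3aR-KO and compound mutants, and -0.29 and 0.01 between APP-KI and compound mutants. No replicate block was fitted for C3aR-KO against WT or the tests of differences. Groups of 3 libraries, and the low depth of the C3aR-positive libraries, limit what differences could be detected.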

Other observations

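The 7 members under the filter were isoforms known from heart, muscle, testis or hypoxic cells. Not all such isoforms were under it, since Cox6a2, known from heart and skeletal muscle, passed. Cox7b2 was at 0 in 17 of the 20 libraries, and Cox8c had a value in 1 library, APP-KI replicate 5 (0.67), which also had the most symbols detected (21210). Per exon kilobase, the highest mean levels in WT microglia were those of Atp5a1 (90.1), Cox8a (63.7), Atp5b (53.3), Cox4i1 (46.9) and Sdha (46.0). In C3aR-positive APP-KI the level per kilobase of Cox8a was 120.2 and that of Atp5a1 100.7, an order opposite to that in C3aR-positive WT (43.7 and 80.6).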
